A study of Homo sapiens with 9 samples.

Results

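The genes described here are 10 that answer signals of the bone morphogenetic protein (BMP) and transforming growth factor beta (TGF-beta) families. They comprise ID1, ID2, ID3 and ID4, and the feedback genes SMAD6, SMAD7, SKIL, SKI, PMEPA1 and BAMBI. They are 10 of the 19775 genes with a probe set on the array, and every probe set annotated to 1 of them alone was used, 26 of 54675. One further probe set, annotated to both ID2 and ID2B, was left out. The genes were selected on their log2 signal over DMSO on the 6 h and 72 h arrays, so those differences are given as a description and support nothing.

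RNA came from PANC-1 cells, a line grown from a human pancreatic carcinoma. The small molecule BRD7552 was given at 5 uM, with exposures of 6 h (3 arrays) and 72 h (3 arrays), and the solvent DMSO alone served as the control, with no exposure time on its labels (3 arrays). Each sample went to 1 Affymetrix expression array. The dose was the lowest that gave the strongest induction of PDX1, per the study's design text, and the comparisons asked which transcripts differ from solvent after a short and a long exposure. Both times were compared with the same 3 DMSO arrays, so time in culture and exposure cannot be told apart, and no label states that the replicates came from separate cultures, so the p-values reflect the spread among these samples alone, which may be technical. Precision is limited by the small number of arrays.

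The median signal of all probe sets lay between 16.2 and 18.8 on every array. The upper quartile was 112 to 119 at 6 h, 97.5 to 117 at 72 h and 114 to 117 in DMSO. It was lowest on 72 h replicates 2 (97.5) and 3 (99.7). Markers of the labelled line were high on all 9 arrays, with signals of 1635 to 17229 for KRT8, KRT18, KRT19, SOX9 and VIM, while KRT7 had 43.7 to 126. Of markers of other cells, PTPRC, CD3E, CDH5 and ALB stayed below the floor of 17.8 set on low signals, at 6.09 to 15.98, whereas PECAM1 had 15.1 to 24.1 and HBB 37.8 to 63.6, and 1 listed marker was not analysed here. The ratio of 3' to 5' signal of the ACTB control was 1.74 to 2.05 at 6 h, 2.07 to 2.21 at 72 h and 1.91 to 2.01 in DMSO, and that of GAPDH was 1.27 to 1.31, 1.34 to 1.39 and 1.31 to 1.35. The ACTB ratio was higher on every 72 h array than on any other array, while the GAPDH ratio at 72 h overlapped with DMSO. The part of these ratios and of the upper quartiles in the 72 h differences below was not tested.

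As background, BMP ligands act through receptors that phosphorylate SMAD1, SMAD5 and SMAD9, whereas TGF-beta and activins act mainly through SMAD2 and SMAD3, and each set enters the nucleus with SMAD4. The ID genes are direct targets of the BMP branch. Their products lack a DNA-binding domain and hold basic helix-loop-helix (bHLH) factors away from DNA. SMAD6, SMAD7, SKIL, SKI, PMEPA1 and BAMBI code for brakes on the same pathways, and several of them are induced by the signal that they restrain.

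At their brightest probe sets, ID1, ID2 and ID3 were lower on every BRD7552 array than on any DMSO array, at 6 h and at 72 h. PMEPA1 was lower too and went on falling between the times, by about the same amount in each of its 3 probe sets. SKIL was lower at both times, but its probe sets did not keep the same order of size. SMAD6, SMAD7 and BAMBI, which are also feedback genes, overlapped with DMSO at both times, and SKI was higher at 72 h.

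Each gene was represented by its brightest probe set and fitted together with the other genes above the floor, 12678 in all, and "fell" and "rose" below refer to an adjusted p under 0.05 in that limma fit. At 6 h, 4 of the 10 genes fell, 0 rose and 6 did not pass, where 0.110% of all genes fell, 0.363% rose and 0.473% were called in either direction. At 72 h, 5 fell, 1 rose and 4 did not pass, where 18.3% of all genes fell, 8.33% rose and 26.6% were called. Of the 12678 genes, 582 had an unadjusted limma p under 0.05 at 6 h, and 4683 at 72 h. Falls were 68.7% of all calls at 72 h, but 54.3% after quantile normalization, 52.5% after cyclic loess and 60.7% with arrays centred on their medians. The median log2 change of the 10 was -0.18 at 6 h and -0.32 at 72 h, against -0.00095 and -0.062 over all genes. The arrays lay wholly below DMSO for 5 of the 10 genes at 6 h, where 5.94% of all genes did, and for 5 at 72 h, where 24.9% did. As these contrasts were in view when the genes were chosen, nothing is read from the counts.

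**Figure D1:**
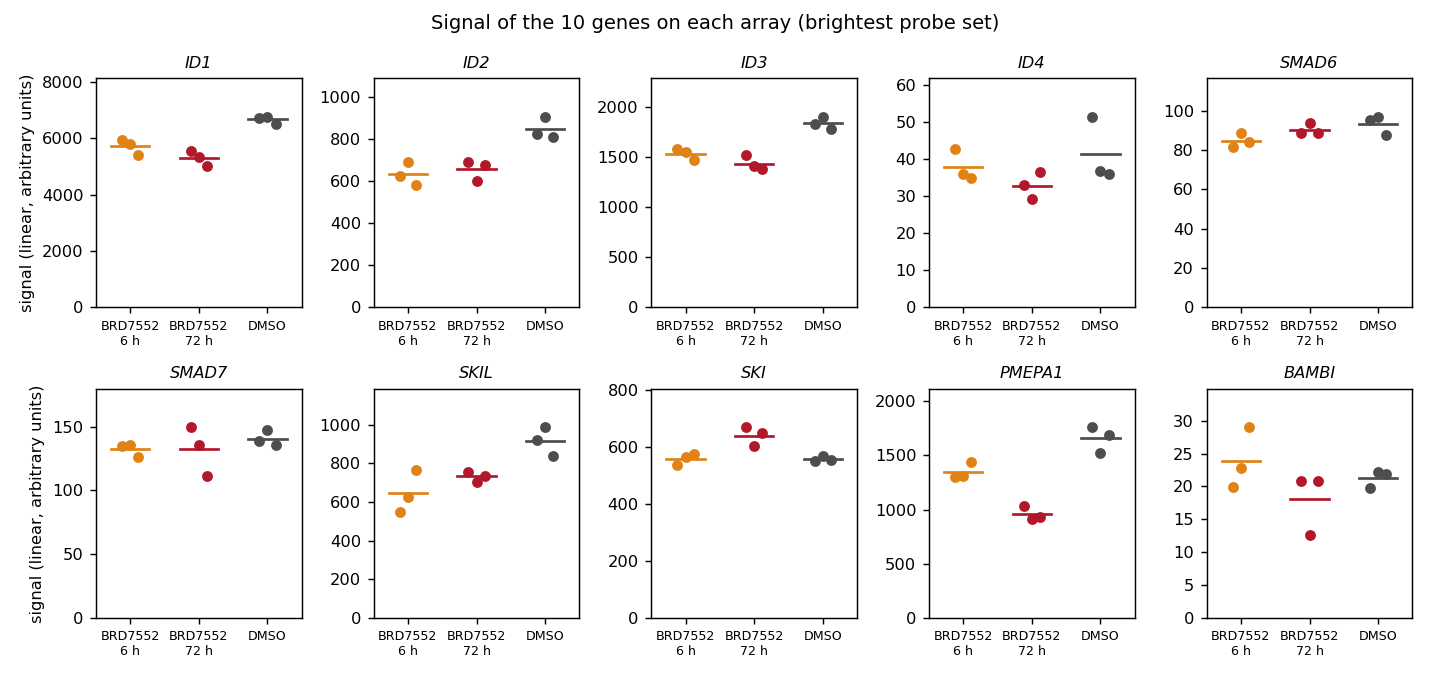
Signal (linear scale, arbitrary units) of the brightest probe set of each of the 10 genes on the 9 arrays; points are arrays, lines are group means, and each vertical axis starts at 0. ID1, ID2, ID3, SKIL and PMEPA1 lie below DMSO on all BRD7552 arrays, and SMAD6, SMAD7, ID4 and BAMBI overlap with DMSO.

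Among the ID genes, ID1 had signals of 5960, 5786 and 5399 at 6 h, 5561, 5332 and 5035 at 72 h, and 6715, 6781 and 6531 in DMSO. Neither BRD7552 group overlapped with DMSO, while the 6 h and 72 h arrays overlapped with each other. ID1 stood at 0.855-fold of DMSO at 6 h, a log2 change of -0.23, and at 0.795-fold at 72 h, a log2 change of -0.33 (SE 0.043 for each), and fell at both times.

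ID2 had 623.6, 693.3 and 583.4 at 6 h, 693.9, 602.9 and 676.3 at 72 h, and 823.2, 908.7 and 813.4 in DMSO. It was the ID gene with the largest change at 6 h, with a log2 change of -0.42 (SE 0.072), and it stood no lower at 72 h, with -0.37. It fell at both times. Its other probe set, of the kind whose name ends in x because its probes may match further transcripts, stood at -0.43 and -0.30 (SE 0.12) and did not pass over all probe sets at either time. This probe set lay below DMSO on all 6 h arrays but overlapped with DMSO at 72 h (198.3 on 72 h replicate 1, 193.6 on DMSO replicate 1).

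ID3 had 1578, 1552 and 1468 at 6 h, 1519, 1409 and 1380 at 72 h, and 1833, 1908 and 1782 in DMSO. The groups were ordered as for ID1, with all 6 BRD7552 arrays below DMSO. ID3 fell at both times, the 6 h arrays by a log2 change of -0.26 and the 72 h arrays by -0.36 (SE 0.048 for each). Over the 9 arrays the log2 signals of ID1 and ID3 had a Pearson correlation of 0.99, those of ID1 and ID2 one of 0.83 and those of ID2 and ID3 one of 0.88, as a description of arrays that share their groups.

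ID4, the fourth family member, was dim. Its brightest probe set had 42.69, 36.06 and 34.83 at 6 h, 32.93, 29.13 and 36.42 at 72 h, and 51.53, 36.76 and 36.06 in DMSO. DMSO replicate 1 stood apart from the other DMSO arrays, and both BRD7552 groups overlapped with DMSO. The log2 change was -0.12 at 6 h and -0.32 at 72 h (SE 0.16), and without DMSO replicate 1 it was 0.051 at 6 h and -0.16 at 72 h. A second probe set above the floor had 16.52, 25.84 and 22.55 at 6 h, 20.23, 16.01 and 19.04 at 72 h, and 26.07, 28.07 and 26.91 in DMSO, below DMSO on all 6 arrays, and did not pass (-0.34 and -0.56, SE 0.17). The other 3 lay below the floor, with changes from -0.070 to 0.092.

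SKIL codes for SnoN, a corepressor that binds SMAD complexes and is removed and then induced again after a TGF-beta signal. Its brightest probe set had 550.2, 628.1 and 767.5 at 6 h, 756.5, 704.8 and 736.0 at 72 h, and 921.1, 987.0 and 837.9 in DMSO. The 6 h arrays were spread more widely than the 72 h arrays, and all lay below DMSO. SKIL fell at 6 h with a log2 change of -0.51 (SE 0.093), the largest of the 10 genes at that time, and at 72 h with -0.32.

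The promoters of these 4 genes, which fell at 6 h, are shown as the stretches directly before their start sites. Each runs over the 250 bases before the transcription start of the RefSeq gene (GRCh38.p14), written along the gene's strand from 5′ to 3′. Capitals mark 3 motifs searched on both strands: the SMAD box CAGAC (or GTCTG), the GC-rich SMAD box GGCGCC, which reads the same on both strands, and its second form GGAGCC (or GGCTCC).
ID1, chr20:31605039-31605288, + strand: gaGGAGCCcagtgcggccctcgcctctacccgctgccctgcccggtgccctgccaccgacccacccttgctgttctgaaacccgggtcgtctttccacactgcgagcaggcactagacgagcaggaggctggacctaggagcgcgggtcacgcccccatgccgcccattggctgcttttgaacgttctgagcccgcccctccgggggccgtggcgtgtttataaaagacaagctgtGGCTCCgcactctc
ID2, chr2:8681806-8682055, + strand: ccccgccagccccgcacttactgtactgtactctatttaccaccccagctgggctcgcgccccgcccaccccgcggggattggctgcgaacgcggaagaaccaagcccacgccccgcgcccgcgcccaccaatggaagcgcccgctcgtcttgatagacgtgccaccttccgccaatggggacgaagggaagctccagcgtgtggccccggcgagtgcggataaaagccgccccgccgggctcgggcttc
ID3, chr1:23559502-23559751, - strand: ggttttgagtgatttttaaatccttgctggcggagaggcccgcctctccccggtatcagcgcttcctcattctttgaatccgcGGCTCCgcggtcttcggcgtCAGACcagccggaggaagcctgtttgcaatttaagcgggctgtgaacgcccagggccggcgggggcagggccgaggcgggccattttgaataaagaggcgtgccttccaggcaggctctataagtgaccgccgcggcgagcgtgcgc
SKIL, chr3:170357465-170357714, + strand: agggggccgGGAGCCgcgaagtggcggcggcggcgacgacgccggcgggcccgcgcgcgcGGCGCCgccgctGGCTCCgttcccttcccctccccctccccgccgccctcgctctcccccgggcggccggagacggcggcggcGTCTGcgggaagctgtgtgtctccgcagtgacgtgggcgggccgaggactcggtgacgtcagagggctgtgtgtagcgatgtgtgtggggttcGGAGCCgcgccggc
ID1 held GGAGCC at 2 places, ID2 none of the 3 motifs, ID3 CAGAC at 1 place and GGAGCC at 1, and SKIL CAGAC at 1, GGCGCC at 1 and GGAGCC at 3. Over the first listed start of the 9 genes in the table (SKI was not found in it), 5 had CAGAC, 3 GGCGCC and 7 GGAGCC in this window, where 38.0%, 16.4% and 30.6% of all 35116 windows did. The windows of the 9 genes had GC contents from 48.0% to 81.2%, and GC content was not matched. A match is a description of letters, and known BMP-responsive stretches of ID genes can lie further away than this window.

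The SKIL probe sets differed over time. At the dimmest of the 3 above the floor the SKIL signals were 38.48, 43.61 and 48.21 at 6 h, 33.16, 27.24 and 29.83 at 72 h, and 52.31, 50.74 and 50.17 in DMSO, a log2 change of -0.24 at 6 h, which did not pass, and of -0.77 at 72 h (SE 0.13), where it fell. This probe set was lower on every 72 h array than on any 6 h array, with a log2 change of -0.53 between the times, while the brightest one stood at 0.19 between them. The remaining one above the floor had changes of -0.042 at 6 h and -0.50 at 72 h (SE 0.15), and did not pass at either time. Averaging all 5 probe sets of SKIL, including those below the floor (-0.092 and -0.018 at 6 h), gave -0.18 at 6 h, which did not pass. The table gives no position for the probes, so which transcripts each of them reads was not tested.

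**Figure D2:**
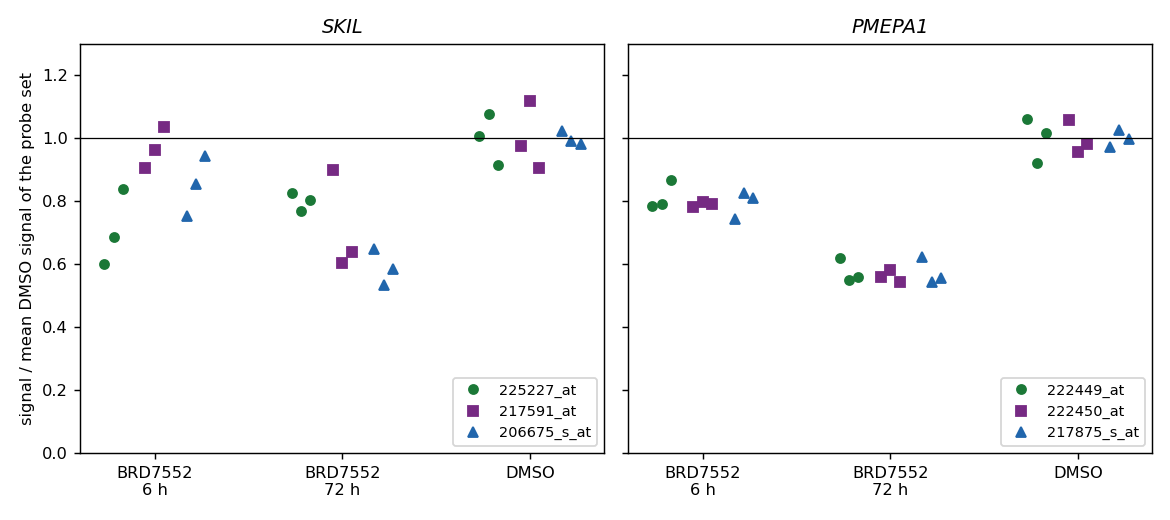
Signal of each probe set above the floor, divided by its own mean over the DMSO arrays (vertical axis, linear, from 0), for SKIL (left) and PMEPA1 (right); points are arrays and marks are probe sets. The 3 PMEPA1 probe sets lie together at each time, whereas the SKIL probe sets differ in which time is lowest.

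PMEPA1 codes for a membrane protein that binds SMAD2 and SMAD3 and keeps them from the receptor, and TGF-beta is known to induce it. Its brightest probe set had 1303, 1312 and 1440 at 6 h, 1029, 910.9 and 929.1 at 72 h, and 1761, 1527 and 1688 in DMSO. No arrays of the 3 groups overlapped, with 72 h lowest and 6 h between. The log2 change was -0.29 at 6 h (SE 0.062), which did not pass over all genes, and PMEPA1 fell at 72 h to 0.577-fold of DMSO (-0.79).

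At the next brightest probe set the PMEPA1 signals were 856.6, 874.9 and 867.3 at 6 h, 612.1, 638.1 and 596.6 at 72 h, and 1161, 1049 and 1076 in DMSO. This was the 1 of the 26 probe sets called at 6 h when all 54675 were fitted together, where 0.00549% of probe sets fell, with a log2 change of -0.34 (SE 0.054). The dimmest had 254.4, 282.6 and 277.3 at 6 h, 213.4, 186.0 and 190.4 at 72 h, and 332.7, 351.2 and 341.4 in DMSO. All 3 PMEPA1 probe sets fell at 72 h, with log2 changes of -0.79, -0.83 and -0.80, and they fell between 6 h and 72 h as well, with -0.50, -0.49 and -0.47. In that last comparison 16.7% of all genes fell, 7.28% rose and 24.0% were called. With all 54675 probe sets fitted together, 7 of the 26 fell at 72 h, where 5.38% of all probe sets did. In that fit the brightest probe sets of SKIL and SKI, which were called at 72 h among the genes, did not pass.

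**Figure D3:**
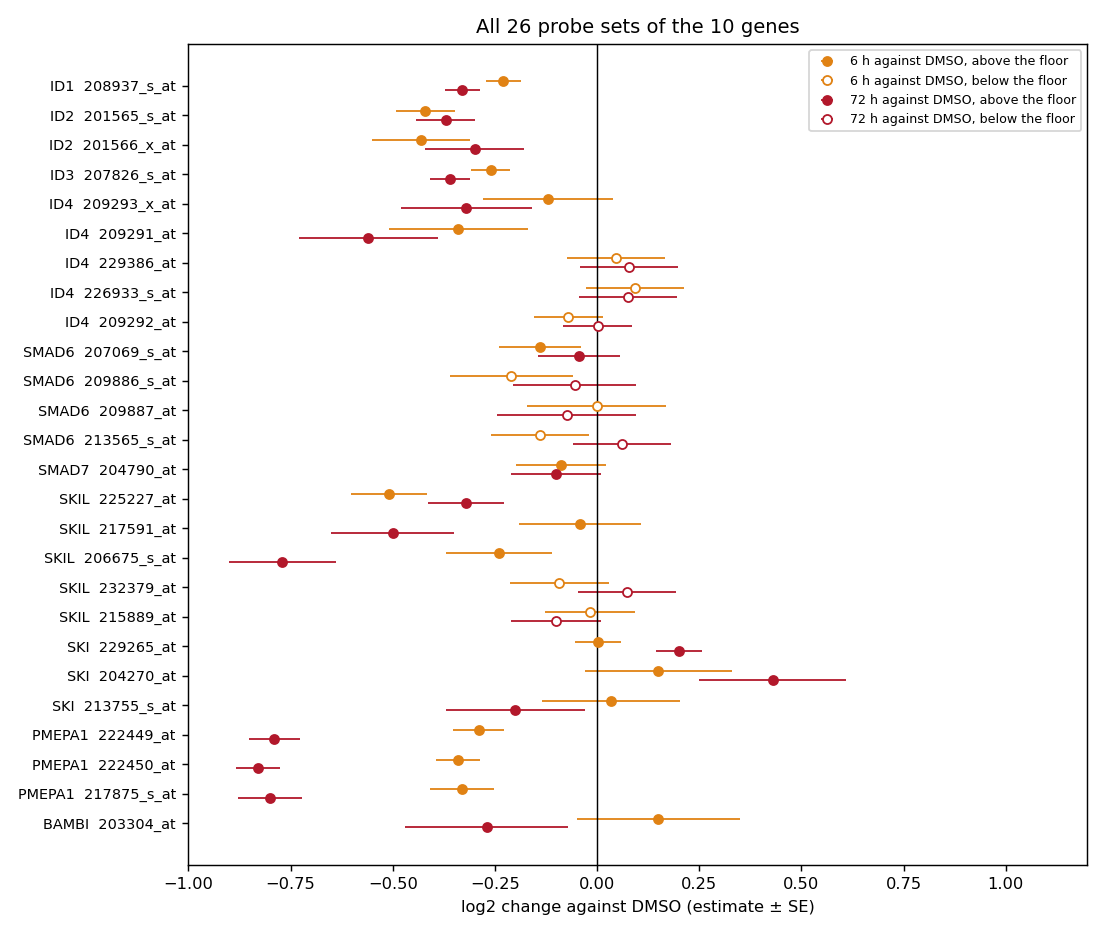
Log2 change against DMSO (horizontal axis, estimate ± SE of the limma fit, n = 3 arrays per group) for all 26 probe sets; open circles are probe sets with a mean below the floor. The PMEPA1 probe sets reach -0.79 to -0.83 at 72 h, and the brightest SMAD6 probe set and the SMAD7 probe set at -0.045 and -0.10.

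The inhibitory SMADs did not pass at either time. SMAD6, which mainly restrains BMP receptors, had 81.66, 88.82 and 84.03 at 6 h, 88.82, 93.53 and 88.82 at 72 h, and 95.26, 97.06 and 87.63 in DMSO. The groups overlapped at both times. The ratio to DMSO was 0.909 at 6 h (95% interval 0.780 to 1.06) and 0.969 at 72 h (0.832 to 1.13). Its other 3 probe sets lay below the floor.

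SMAD7, which restrains receptors of both branches, had 134.7, 135.8 and 125.8 at 6 h, 149.5, 135.8 and 111.3 at 72 h, and 138.5, 147.1 and 135.8 in DMSO. The 72 h arrays spanned the whole range of DMSO, and the ratio to DMSO was 0.940 at 6 h (0.799 to 1.11) and 0.935 at 72 h (0.794 to 1.10). The sign of SMAD6 and of SMAD7 at 72 h turned with quantile normalization (log2 0.11 and 0.019) and with cyclic loess (0.083 and 0.013), and that of SMAD7 also without 72 h replicate 3 (0.022). Only 1 probe set reads SMAD7.

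BAMBI, a decoy receptor without a kinase domain, lay close to the floor, with 19.97, 22.77 and 29.00 at 6 h, 20.87, 12.57 and 20.87 at 72 h, and 19.80, 22.24 and 21.91 in DMSO. One low array, 72 h replicate 2, set most of its change at 72 h, which was -0.27 with it and -0.029 without it. SKI, the corepressor related to SnoN, had 536.3, 562.7 and 573.5 at 6 h, 668.1, 600.7 and 646.8 at 72 h, and 550.4, 567.3 and 552.4 in DMSO. It was the 1 member that rose, 1.15-fold at 72 h (log2 0.20 ± 0.056, SE), and stood at 0.0017 at 6 h, a value whose sign turned with quantile normalization and cyclic loess. Its other probe sets stood at 0.43 and -0.20 at 72 h and did not pass, and the call of SKI ended with arrays centred on their medians (0.23), without DMSO replicate 1 (0.19) or replicate 3 (0.19), and with its probe sets averaged (0.15).

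The BMP-type genes (ID1 to ID4 and SMAD6) and the TGF-beta-type genes (SKIL, SMAD7 and PMEPA1) are set side by side as a description, since this grouping and these values were part of the selection. The median log2 difference from the DMSO mean was -0.19, -0.21 and -0.31 on the 6 h arrays for the BMP type, and -0.35, -0.34 and -0.20 for the TGF-beta type. On the 72 h arrays it was -0.28, -0.38 and -0.33 for the BMP type, and -0.27, -0.37 and -0.33 for the TGF-beta type. The median of the BMP type minus that of the TGF-beta type thus ran from -0.10 to 0.15 on the 6 h arrays and from -0.011 to 0.0095 on the 72 h arrays. At 72 h the single genes ran from -0.37 for ID2 to -0.045 for SMAD6 in the BMP type, and from -0.79 for PMEPA1 to -0.10 for SMAD7 in the TGF-beta type. Whether the types differ was not tested.

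The calls at 6 h were close to the threshold. With 1 array left out in turn, the fall of ID2 at 6 h was lost without DMSO replicate 2 (-0.37) or 6 h replicate 3 (-0.37). That of ID3 was lost without DMSO replicates 1 (-0.27) or 2 (-0.24) or 6 h replicates 2 (-0.27) or 3 (-0.23), and that of ID1 without any 1 DMSO array (-0.22, -0.21 and -0.24 in the order of their numbers), 6 h replicates 2 (-0.23) or 3 (-0.18) or 72 h replicate 2 (-0.23). That of SKIL was lost without DMSO replicates 1 (-0.50) or 2 (-0.45), 6 h replicates 1 (-0.40) or 2 (-0.49) or any 1 of the 72 h arrays (-0.51). At 72 h the falls of ID1, ID2, ID3 and PMEPA1 passed in each of these 9 fits, and that of SKIL was lost without DMSO replicates 1 (-0.31) or 2 (-0.26) or 72 h replicates 2 (-0.29) or 3 (-0.32). With arrays centred on their medians the calls of ID1 (-0.22) and ID3 (-0.26) at 6 h and of SKIL at 72 h (-0.28) ended, and with the 6 h and DMSO arrays fitted alone that of SKIL at 6 h (-0.51).

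Other genes of the pathways showed what stood around the 10, by a list of 137 in 9 roles, of which 8 were not analysed here, 33 lay below the floor and 96 were tested. The list was drawn up with earlier results of these data known. At 6 h, 3 of the 96 fell, 0 rose and 93 did not pass, or 3.12% called against 0.473% of all genes. At 72 h, 36 fell, 4 rose and 56 did not pass, or 41.7% called against 26.6% of all genes, with a median log2 change of -0.17.

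Extracellular proteins included the gene of this list with the largest change outside the target lists. NOG codes for noggin, a secreted antagonist that binds BMPs, and had 221.8, 217.5 and 252.2 at 6 h, 101.0, 103.0 and 98.51 at 72 h, and 278.0, 287.6 and 278.9 in DMSO. All 6 BRD7552 arrays lay below DMSO, and NOG fell at 72 h with a log2 change of -1.48 (SE 0.084, limma adjusted p = 1.28e-08), while its change of -0.29 at 6 h did not pass (adjusted p = 0.339). FSTL1, a follistatin-like protein, fell with -0.86, and LTBP1, which anchors latent TGF-beta in the matrix, with -0.51. TWSG1, a BMP-binding protein, rose 1.22-fold, and the other 7 of 11 tested in this role did not pass at 72 h.

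Of ligands, GDF11 (log2 change -0.70), TGFB3 (-0.53) and TGFB2 (-0.36) fell at 72 h, as 3 of 6 TGF-beta, activin and nodal genes, and BMP8B (-0.42) fell as 1 of 8 BMP and GDF genes. BMP8B did not pass after quantile normalization (-0.30), cyclic loess (-0.29) or median centring (-0.39) or without any 1 DMSO array (-0.37 to -0.46), TGFB2 not with median centring (-0.32) or cyclic loess (-0.28) or without DMSO replicate 2 (-0.25) or 72 h replicate 3 (-0.30), and TGFB3 not without DMSO replicate 2 (-0.46). The median change of the BMP and GDF ligands was -0.068 and turned to 0.038 and 0.050 with quantile normalization and cyclic loess.

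Of 11 receptors and co-receptors tested, 5 fell and 0 rose at 72 h, or 45.5% called against 26.6% of all genes. ENG, the co-receptor endoglin, fell with a log2 change of -0.58 (SE 0.10), ACVR1, a type I receptor, with -0.48 (SE 0.056), and RGMB, a BMP co-receptor, with -0.43 (SE 0.058). TGFBR1 and TGFBR2, the TGF-beta receptors, fell with -0.27 and -0.22, while BMPR2, the BMP type II receptor, stood at -0.12 and did not pass. The 4 other BMPR2 probe sets above the floor stood on the other side of 0, at 0.02 to 0.12, and did not pass either. With arrays centred on their medians, TGFBR1 (-0.23) and TGFBR2 (-0.18) no longer passed, and 3 of the 11 fell and 0 rose. With quantile normalization and with cyclic loess, 5 of the 11 fell and 2 rose. Under quantile normalization those that rose were TGFBR3 (0.38) and ACVR1B (0.17). BMPR1B lay below the floor.

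The SMADs that carry the signal moved in both directions at 72 h. SMAD9, a BMP-branch SMAD, had 208.7, 230.6 and 239.5 at 6 h, 207.3, 180.4 and 190.4 at 72 h, and 245.8, 260.7 and 252.6 in DMSO, and fell at 72 h with a log2 change of -0.39 (SE 0.083, limma adjusted p = 0.00257). SMAD2 and SMAD5 fell with -0.24 and -0.18, SMAD3 rose 1.13-fold, and SMAD1 and SMAD4 stood at -0.043 and -0.083 without passing. The calls of SMAD2, SMAD3 and SMAD5 did not hold with median centring (-0.20, 0.21 and -0.15) or with probe sets averaged (-0.010, 0.034 and 0.026). Single arrays also decided 2 of them: SMAD5 did not pass without any 1 DMSO array (-0.20, -0.18 and -0.18) or 72 h replicates 2 or 3 (-0.17 each), nor SMAD2 without DMSO replicate 1 (-0.20) or 72 h replicates 2 (-0.21) or 3 (-0.19).

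Among 16 SMAD modifiers and corepressors, 3 fell, 1 rose and 12 did not pass at 72 h, a share near the 26.6% called over all genes. FKBP1A, the immunophilin that holds type I receptors inactive, fell with a log2 change of -0.53, NEDD4L, a ubiquitin ligase of this pathway, with -0.36, and SMURF2, another such ligase, with -0.17. SMURF2 did not pass under any of the 3 other scalings (-0.13 to -0.15) or without any 1 DMSO or 72 h array (-0.15 to -0.19). TGIF1, a corepressor of SMAD2, rose 1.19-fold.

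Other TGF-beta targets were the role with the most falls at 72 h, 14 of 21, with 0 that rose and a median of -0.45, against 3 of 10 other BMP targets, with a median of -0.19. The share called was 66.7% and 30.0%, against 26.6% of all genes, and the difference between these roles was not tested. The log2 change was -2.01 for TGM2, a transglutaminase, -1.79 for ADAM19, a metalloprotease, -1.67 for IGFBP3, which binds insulin-like growth factors, and -0.83 for BHLHE40, a bHLH repressor. EDN1, which codes for endothelin 1, was the 1 of the 21 that fell at 6 h, with a log2 change of -0.47 (limma adjusted p = 0.00106) and signals of 421.9, 429.7 and 431.9 at 6 h, 522.9, 524.4 and 487.4 at 72 h, and 548.3, 607.0 and 620.7 in DMSO. At this probe set the arrays at 72 h lay between those of 6 h and DMSO, and its change of -0.21 at 72 h, which passed, did not pass with median centring (-0.17) or without DMSO replicates 2 (-0.19) or 3 (-0.17) or 72 h replicate 3 (-0.17). The other EDN1 probe sets did not share one order of the times: 1 stood at -0.23 at 6 h and fell at 72 h (-0.66), and 1 stood at -0.40 and -0.30 without passing. With its probe sets averaged EDN1 fell at both times, with -0.36 and -0.39. The other ADAM19 probe set stood at 0.27 at 72 h and did not pass.

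DLX2, a homeobox gene that BMPs induce, was the 1 of 10 BMP targets that fell at 6 h, with 261.2, 274.5 and 282.9 at 6 h, 259.8, 266.2 and 266.0 at 72 h, and 328.6, 360.6 and 340.3 in DMSO. All 6 BRD7552 arrays lay below DMSO, and DLX2 stood at -0.33 at 6 h (limma adjusted p = 0.0482) and at -0.38 at 72 h on the log2 scale. MSX1, another homeobox gene, and GATA2 fell at 72 h, with -0.41 and -0.23, MSX1 not without DMSO replicate 2 (-0.37) or 72 h replicate 2 (-0.29), and GATA2 not with median centring (-0.19). At 6 h DLX2 did not pass in 8 of the 9 fits with 1 array left out (-0.29 to -0.36), the exception being that without 72 h replicate 1. Nor did it pass with the replicate number as a block (-0.33).

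The E proteins, the bHLH factors that ID proteins bind, did not pass against DMSO at either time among those tested. TCF3, 1 of them, fell between 6 h and 72 h at its brightest probe set (log2 -0.19, limma adjusted p = 0.0324). Its 9 other probe sets above the floor moved in both directions. Against DMSO, some stood higher at 72 h (0.19, from 0.0094 at 6 h) and some lower (-0.14, from -0.0072). Of 7 tested E proteins and other bHLH factors, HES1, a bHLH repressor, had 417.1, 416.8 and 416.8 at 6 h, 275.3, 222.5 and 215.9 at 72 h, and 534.6, 575.3 and 578.7 in DMSO. HES1 fell at 6 h with a log2 change of -0.43 (limma adjusted p = 0.0275) and at 72 h with -1.25, and BHLHE41 rose 1.35-fold at 72 h, while the other 5 did not pass against DMSO. At 6 h HES1 did not pass with median centring (-0.42) or without any 1 DMSO or 6 h array (-0.41 to -0.47).

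With the probe sets of each gene averaged, further calls at 72 h ended, for TGFB3 (-0.26), TWSG1 (0.15), ENG (-0.33), TGFBR1 (-0.016), TGFBR2 (-0.26), NEDD4L (-0.13), TGIF1 (0.10), SMURF2 (-0.20), DLX2 (-0.16), MSX1 (-0.24) and BHLHE41 (0.14), and at 6 h those of DLX2 (-0.20) and HES1 (-0.27). These averages took in probe sets below the floor. For TGFB3, ENG, TGFBR1, TGFBR2, DLX2 and MSX1 no other probe set lay above it.

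**Figure D4:**
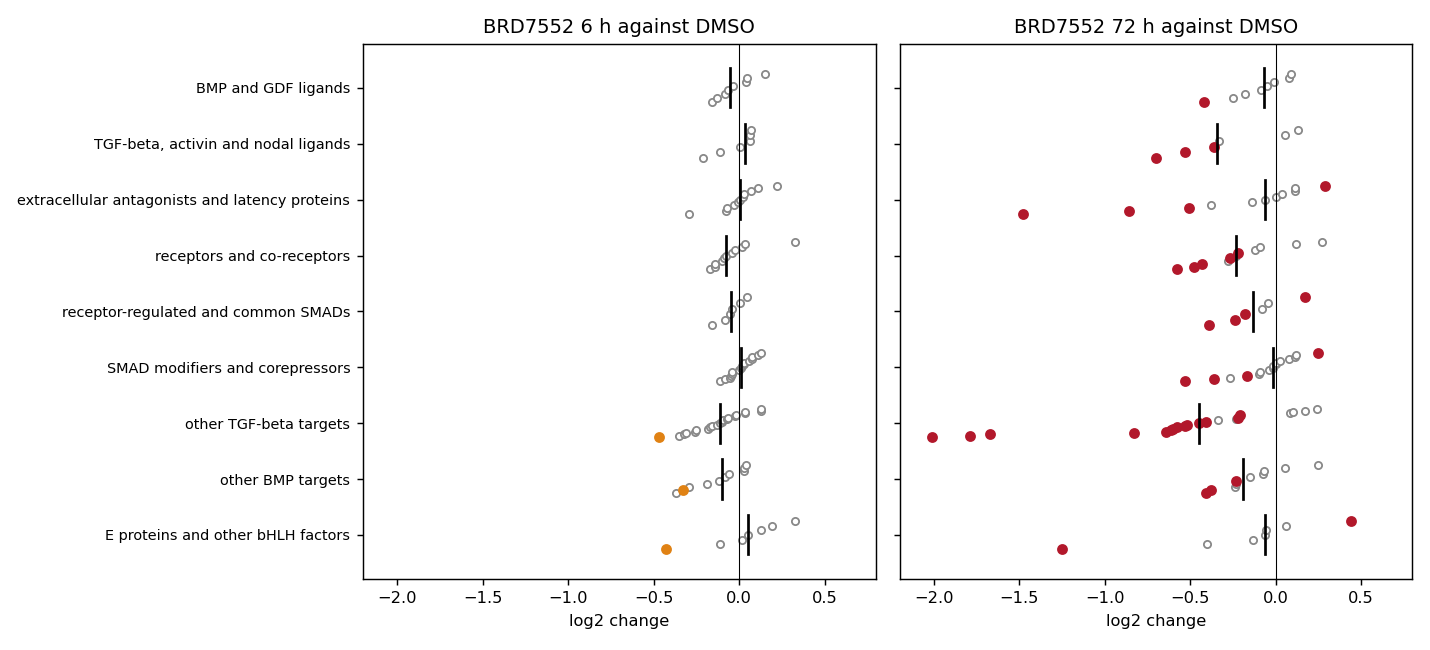
Log2 change against DMSO (horizontal axis) of the 96 tested genes of the other pathway roles at 6 h (left) and 72 h (right); filled circles passed the limma fit, open circles did not, and the bar is the median of the role. At 72 h the TGF-beta targets have the lowest median, at -0.45.

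By Pearson correlation of log2 signal over the 9 arrays, the genes most like the mean of the standardised ID1, ID2 and ID3 were CAB39 (0.943), TGFBR2 (0.941) and CSRNP1 (0.940). Those most like SKIL were GMNN (0.938), SMC5 (0.930) and DDX21 (0.927). For PMEPA1, added after its values were seen, they were WAPL (0.995), IL11 (0.988) and WWC1 (0.985). The points share their 3 groups, so a high value can come from groups ordered alike or from arrays that vary alike within groups. These were not told apart. The sizes differed: CSRNP1 had log2 changes of -0.39 and -0.46 at 6 h and 72 h, CAB39 -0.14 and -0.17, and IL11 -0.43 and -1.60.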

How the data were processed

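The deposited table holds an intensity per probe set, linear, between 4.54 and 25052. MAS5 is named in the submitters' processing notes, without version or scaling. Since 59.2% of probe sets carry the same value on at least 2 arrays, how the values were summarised is uncertain, and such ties can make the spread within a group too small. Values were used as deposited and log2 transformed, with no pseudocount. Of 54675 probe sets, 41097 had 1 symbol in the platform's annotation, 1801 several (left out) and 11777 none. Through gene IDs, 41043 were matched to current records. The brightest probe set by its mean stood for each gene, and genes below the median probe set (linear 17.8) were left out. Linear models (lmFit and eBayes with a trend) were fitted with limma 3.58.1 in R 4.3.3 to all 9 arrays, leaving 6 residual degrees of freedom, with Benjamini-Hochberg adjustment over the 12678 genes kept. Further probe sets were adjusted over all 54675. The fit was tested on simulated data.

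Members, lists and the naming rule were chosen with earlier results of these data known. Named beside the members were up to 4 called genes of each role per comparison, and the main receptors and SMADs whatever their p. Promoters came from RefSeq (GRCh38.p14), with 9 of the 10 genes matched. Alternatives were other scalings, filters, probe set rules, variance priors, a pseudocount, the 2 compared groups alone, a replicate block and each array left out. Averages of the probe sets of a gene took in those below the floor.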

Additional observations from a re-analysis of the deposited data

Results flagged for a closer look

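The changes at the 2 times differed for 22 of the genes named by the rule above, by the limma fit of 72 h against 6 h (adjusted p under 0.05). In that fit 24.0% of all genes were called. The rule took mostly pathway genes called against DMSO on these same arrays, so nothing is read from their number beside this share. TCF3, which also fell between the times, was outside the rule. Of the 10 genes, the 22 included PMEPA1, with a log2 difference of -0.50 (SE 0.062), and SKI, with 0.19 (SE 0.056). This contrast shares its arrays with those in view when the 10 genes were chosen. Of the other pathway genes the log2 difference was negative for GDF11 -0.70, TGFB3 -0.59, NOG -1.19, FSTL1 -0.79, LTBP1 -0.43, ENG -0.55, ACVR1 -0.35, RGMB -0.30, FKBP1A -0.61, NEDD4L -0.37, TGM2 -1.88, ADAM19 -1.48, IGFBP3 -1.70, BHLHE40 -0.58, MSX1 -0.44 and HES1 -0.82, and positive for TWSG1 0.26, SMAD3 0.13, EDN1 0.26 and BHLHE41 0.25. Of the 3' to 5' ratios given above, that of ACTB was higher on every 72 h array, and that of GAPDH overlapped with DMSO. Their part was not tested. The EDN1 difference holds for its brightest probe set, and 1 of its other probe sets was lower at 72 h (-0.66) than at 6 h (-0.23) relative to DMSO.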

How the results depend on the processing

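Genes below the floor of 17.8 were not tested. With median centring the genes called over the whole table were 37 at 6 h, 2086 at 72 h and 1782 between the times, in place of 60, 3378 and 3037. At 6 h 23 were called both with probe sets averaged and with no variance trend, and 28 to 71 with 1 array left out. The pathway genes called at 6 h numbered 1, in place of 3, with median centring, no filter, averaged probe sets or no variance trend, and 1 to 3 with 1 array left out. Falls were 68.7% of all calls at 72 h (2322 lower, 1056 higher), but 54.3% under quantile scaling (1973 and 1659), 52.5% under cyclic loess (1911 and 1727) and 60.7% under median centring (1266 and 820). For the pathway genes at 72 h these scalings gave 9 higher and 34 lower, 9 and 33, and 3 and 26, in place of 4 and 36. The median of SKIL, SMAD7 and PMEPA1 at 6 h was -0.18 with averaged probe sets, in place of -0.29, and with 1 array left out it ran from -0.38 to -0.26 at 72 h. Signs turned for values near 0, none of them passing under that setting: SKI at 6 h (-0.0020 and -0.00084), SMAD6 at 72 h (0.11 and 0.083), SMAD7 (0.019 and 0.013) and SMAD1 (0.0031 and 0.015) with quantile normalization and cyclic loess, and SMAD5 (0.026), BMPR2 (0.019) and SMAD4 (0.076) with averaged probe sets. With 1 array left out, ID4 at 6 h ran from -0.21 to 0.051, SKI at 6 h from -0.019 to 0.029, SMAD7 at 72 h from -0.19 to 0.022 and SMAD1 at 72 h from -0.095 to 0.014. PMEPA1 passed at 6 h (-0.29 to -0.32) with quantile normalization, cyclic loess, the upper quartile filter, averaged probe sets or the replicate block, and without DMSO replicate 2 (-0.35) or 72 h replicate 1. ID1 and SKIL at 6 h did not pass without the filter, and ID1, ID2, ID3 and SKIL not with averaged probe sets or without the variance trend. SKIL at 72 h did not pass without the trend. The cause of these changes was not tested.

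In the labels, same-numbered arrays share only a number, and whether they share a culture or batch cannot be told. Their deviations from the group means correlated from -0.259 to 0.202, above 0.1 in 4 of 9 pairs. None, 0 of 9 arrays, correlated best with its own number in both other groups. With the replicate block the genes called at 6 h numbered 54 and the pathway genes 2 at 6 h and 40 at 72 h; of the named genes it changed the calls of PMEPA1 (now passing, -0.29) and DLX2 (no longer passing, -0.33), both at 6 h, and no other.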
